A study of Mus musculus with 12 samples.

Results

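Cardiac fibroblasts given PDGF-AB were compared with untreated ones on 6 of the series' 12 arrays, 3 for each group, chosen by the treatment named in the sample titles. All cells came from hearts of male C57BL/6 mice aged 12 weeks, sorted for SCA1 and PDGFRα and against CD31, and were grown as P0 bulk cultures of cardiac colony-forming-unit fibroblasts (cCFU-F). The PDGF-AB group received the ligand at 50 ng/ml, and the untreated group was titled untreated control. The other 6 arrays, 3 each for the receptor kinase inhibitor AG1296 at 1 uM and at 10 uM, served to estimate the spread and for values set beside those of PDGF-AB. The labels state neither the time in PDGF-AB, nor a vehicle, nor how many mice or cultures lie behind the arrays, so p-values measure the spread between arrays, which may be technical.

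PDGF-AB is a dimer of a PDGF A and a PDGF B chain. It binds the receptor PDGFRα and pairs of PDGFRα with PDGFRβ, which are tyrosine kinases that signal through Ras and ERK, PI3K and phospholipase C. In fibroblasts the PDGF system is known for driving division, migration and the making of matrix. Immediate early transcription factors such as the FOS and EGR families respond within the first hour in many cells, and secreted factors and matrix genes later.

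Expression was measured as 1 log2 level per gene for 19938 genes. Levels correlated across genes, which are not independent replicates, at r of 0.9922 to 0.9954 within the PDGF-AB group and 0.9948 to 0.995 within the untreated group. PDGF-AB replicate 1 stood apart from the rest, with the lowest mean r to arrays of other groups (0.9897, where the other 11 arrays had 0.9918 to 0.9934). Results are therefore also given without it. Of the cell markers, Pdgfra, the receptor of the sort, was at 9.55 ± 0.14 with PDGF-AB and 9.42 ± 0.07 untreated (log2 mean ± SD, n = 3), and Pecam1, which encodes CD31, was at 2.98 ± 0.02 and 3.02 ± 0.16. Ly6a, which encodes SCA1, was not analysed here. Of 13 endothelial markers 1 lay above the median of all genes in untreated cells, as did 2 of 15 cardiomyocyte and 2 of 22 leukocyte markers, against 20 of 25 fibroblast genes. Of pericyte and smooth muscle markers 6 of 14 lay above it, and of mesothelial and epicardial markers 6 of 13. Of Schwann cell and neural markers 4 of 11 did, and of erythroid markers 0 of 3.

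With 3 arrays in each group, few genes passed the threshold for a difference, and others may have changed without passing. Among those that passed, the largest rises were those of Cd53, Prl2c5, Mgp, Nrn1 and Hgf, and the largest falls those of Ptprz1, Rasgrp3 and Map2. In a limma fit, 66 of 19938 genes (0.331%) differed at a Benjamini-Hochberg adjusted p under 0.05, called here, of which 24 (0.12%) rose and 42 (0.211%) fell with PDGF-AB. An unadjusted p under 0.05 was seen for 1705 genes (8.55%). The change was at least 2-fold for 5 of the rises and 3 of the falls. In all 66 the 3 PDGF-AB arrays lay wholly beyond the 3 untreated arrays, a separation seen in 13.3% of all genes. The median log2 fold change over all genes was 0.01. The count was 40 without PDGF-AB replicate 1, 35 of them among the 66, and between 21 and 36 without any other of the 6 arrays. Without PDGF-AB replicate 1 the log2 fold changes of the 66 genes were 72.8% to 119.2% of those with it, and 31 calls were lost, at adjusted p of 0.05 to 0.206. These were 8 rises, of Slc38a4, Rtp4, Dkk2, Fosl1, Eps8, Tgfb1, Adam12 and Septin9. The 23 falls were those of Nkain4, Edn1, Zdhhc2, Bmp4, Sorbs2, Scel, Kcnab1, Fzd6, Galnt16, Ephx2, Tyrobp, Pxdc1, Zfp521, Crebl2, Fibin, Pcdh18, Vnn1, Jag1, Prss23, Pcsk6, Sntg1, Gpc4 and Aldh1a1.

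**Figure D1:**
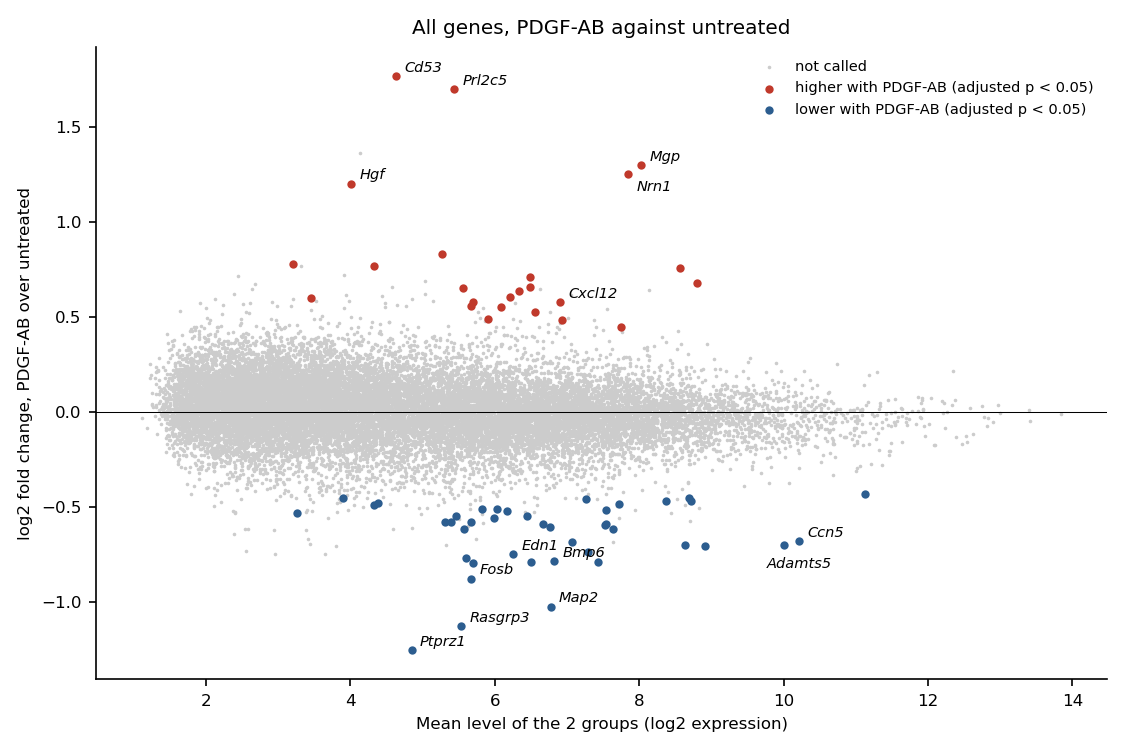
Log2 fold change of PDGF-AB over untreated (vertical) against the mean log2 level of both groups (horizontal), 1 point per gene. The 24 genes called higher are red and the 42 called lower are blue; Cd53 (1.77) and Prl2c5 (1.70) lie highest and Ptprz1 (-1.25) lies lowest among them.

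Mgp, Nrn1, Hgf and Prl2c5 encode proteins that cells release or hold on their surface, a grouping made after their values were seen. Mgp, a matrix protein that inhibits calcification and binds BMP ligands, was at 8.72, 8.57 and 8.73 in PDGF-AB arrays, against 7.47, 7.38 and 7.28 in untreated arrays (log2 levels). These groups lay more than a log2 unit apart, and the log2 fold change was 1.30 ± 0.10 (SE; adjusted p = 0.000117). Nrn1, a membrane-anchored neurite growth factor, was at 8.40, 8.40 and 8.63 with PDGF-AB, against 7.14, 7.33 and 7.20 untreated, a change of 1.25 ± 0.15 (adjusted p = 0.00255). Hgf, the ligand of the receptor Met, was at 4.71, 4.79 and 4.33 with PDGF-AB, against 3.67, 3.27 and 3.29 untreated, a change of 1.20 ± 0.14 (adjusted p = 0.00247). Untreated Hgf lay below the median of all genes (4.45), where background can shrink a fold change. Prl2c5, a proliferin of the prolactin family, was at 6.09, 6.45 and 6.32 with PDGF-AB, against 4.84, 4.58 and 4.34 untreated, a change of 1.70 ± 0.22 (adjusted p = 0.00522). The proliferin genes are close paralogs, so its probe set may also read its relatives. Of these 4 genes Mgp, Nrn1 and Prl2c5 stayed called under all 21 other settings tried, and Hgf under all but the fit of the 6 arrays alone.

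Cxcl12, Tgfb1, Dkk2, Olfml3, Pi15 and Lpl, also grouped as secreted proteins after their values were seen, rose by less. Cxcl12, the chemokine ligand of CXCR4, was at 7.14, 7.28 and 7.16 with PDGF-AB, against 6.73, 6.62 and 6.50 untreated (log2 fold change 0.58 ± 0.09, adjusted p = 0.0158). Tgfb1, a TGF-beta ligand that activates fibroblasts, was at 6.12, 6.19 and 6.16 with PDGF-AB, against 5.65, 5.63 and 5.71 untreated (0.49 ± 0.08, adjusted p = 0.0222). The arrays of each group lay close together for Tgfb1, yet its call was lost without any 1 of the 6 arrays (adjusted p up to 0.120). Dkk2, a secreted modulator of Wnt receptors, rose by 0.58 (adjusted p = 0.048), with 0.49 and adjusted p = 0.198 without PDGF-AB replicate 1. Olfml3, a secreted olfactomedin-domain protein, rose by 0.71 ± 0.09 (adjusted p = 0.00503) and kept its call without any 1 of the 6 arrays. Pi15, a secreted protease inhibitor, rose by 0.64 ± 0.11 (adjusted p = 0.0199), and Lpl, the lipase that releases fatty acids from lipoproteins, by 0.56 (adjusted p = 0.0447).

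**Figure D2:**
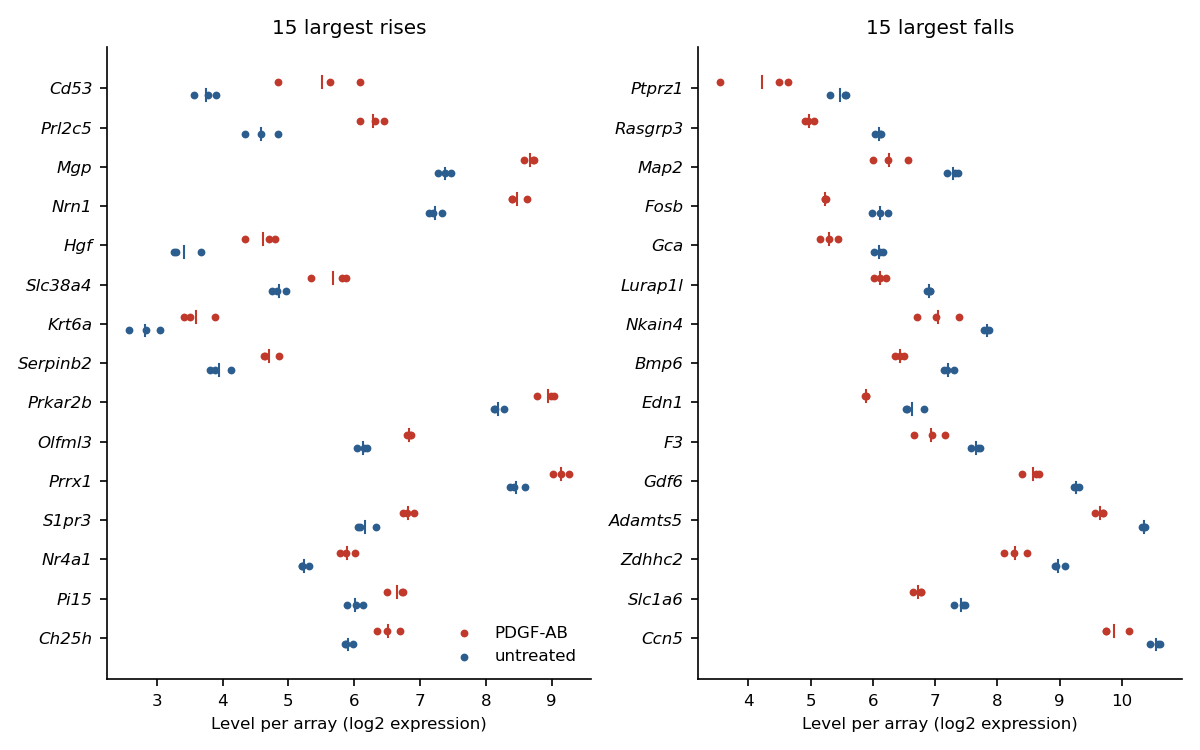
Log2 level in each of the 3 PDGF-AB arrays (red) and 3 untreated arrays (blue) for the 15 largest called rises (left) and the 15 largest called falls among named genes (right). Short bars are group means. The groups of every gene shown are apart, and the PDGF-AB arrays of Cd53 and Ptprz1 are the most scattered, with PDGF-AB replicate 1 at 4.84 for Cd53 and 3.54 for Ptprz1.

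Ligands of the BMP family were among the falls. Bmp6 was at 6.35, 6.43 and 6.51 in PDGF-AB arrays, against 7.18, 7.15 and 7.30 in untreated arrays, a log2 fold change of -0.78 ± 0.08 (adjusted p = 0.0014). Gdf6, a BMP-type ligand of joints and skeleton, was at 8.39, 8.62 and 8.68 with PDGF-AB, against 9.31, 9.26 and 9.23 untreated (-0.70 ± 0.10, adjusted p = 0.0073). Bmp4, a ligand that patterns mesoderm, was at 5.16, 5.15 and 5.48 with PDGF-AB, against 5.89, 5.94 and 5.80 untreated (-0.61 ± 0.12, adjusted p = 0.048). Bmp6 and Gdf6 stayed called without any 1 of the 6 arrays, whereas Bmp4 stood at -0.56 with adjusted p = 0.206 without PDGF-AB replicate 1. Of the 33 measured BMP ligands, antagonists and targets these 3 were called lower and 0 higher, beside 0.211% and 0.12% of all genes. By sign of the log2 fold change, 19 of the 33 were negative and 14 positive. In the limma fit 6 of the 33 were lower and 4 higher at an unadjusted p under 0.05, which 8.55% of all genes had. The list's median log2 fold change was -0.01, against 0.01 over all genes. This list, like every list here, was chosen with earlier results of these data known, so its counts are a description only. The BMP antagonist Grem1 was at 3.71, 4.09 and 3.29 with PDGF-AB, against 3.18, 2.79 and 2.82 untreated, and did not pass (0.77 ± 0.18, adjusted p = 0.142). The BMP target Id1 had a log2 fold change of 0.24 (adjusted p = 0.470), and Id2, Id3 and Smad6 had 0.12, 0.11 and -0.04.

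Of the TGF-beta ligands Tgfb1 passed, and Tgfb2 and Tgfb3 did not. Tgfb2 was at 6.00, 6.43 and 6.40 with PDGF-AB, against 6.91, 6.71 and 6.79 untreated (-0.53 ± 0.12, adjusted p = 0.111). Tgfb3 had a log2 fold change of -0.33 ± 0.09 (adjusted p = 0.239). In the list of 19 measured TGF-beta ligands, receptors and targets, 1 was called higher and 0 lower, beside 0.12% and 0.211% of all genes, and the median was 0.01. Of the 19, 2 were higher and 4 lower at an unadjusted p under 0.05, which 8.55% of all genes had.

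Genes of the CCN family and YAP targets, which respond to cell tension, held 3 falls and 0 rises among 16 measured, beside 0.211% of all genes lower and 0.12% higher. This list too was chosen with earlier results of these data known. Of the 16, 13 had a negative log2 fold change, where 52.9% of all genes had a positive one. At an unadjusted p under 0.05, which 8.55% of all genes had, 7 were lower and 1 higher. The list's median was -0.17, against 0.01 over all genes, and was -0.15 after quantile normalization and -0.19 after median centring. Edn1, which encodes the vasoconstrictor endothelin-1, was at 5.89, 5.88 and 5.89 in PDGF-AB arrays, against 6.54, 6.81 and 6.53 in untreated arrays (-0.74 ± 0.12, adjusted p = 0.0144). Ccn5, a matricellular protein, was at 10.12, 9.75 and 9.74 with PDGF-AB, against 10.61, 10.46 and 10.58 untreated (-0.68 ± 0.11, adjusted p = 0.0144). F3, the tissue factor that starts coagulation, was the third of these falls and is described with its pathway. The relatives Ccn1 and Ccn2, growth-responsive matricellular genes, had -0.06 and -0.17 (adjusted p = 0.897 and 0.593), and Ankrd1, a YAP target, had -0.28 (adjusted p = 0.346). Among 22 contractile genes of myofibroblasts 0 were called, at a median of -0.07. At an unadjusted p under 0.05, which 8.55% of all genes had, 5 were lower and 0 higher. Tagln was at -0.27 ± 0.08 (adjusted p = 0.244) and Cnn1 at -0.41 ± 0.12 (adjusted p = 0.274).

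**Figure D3:**
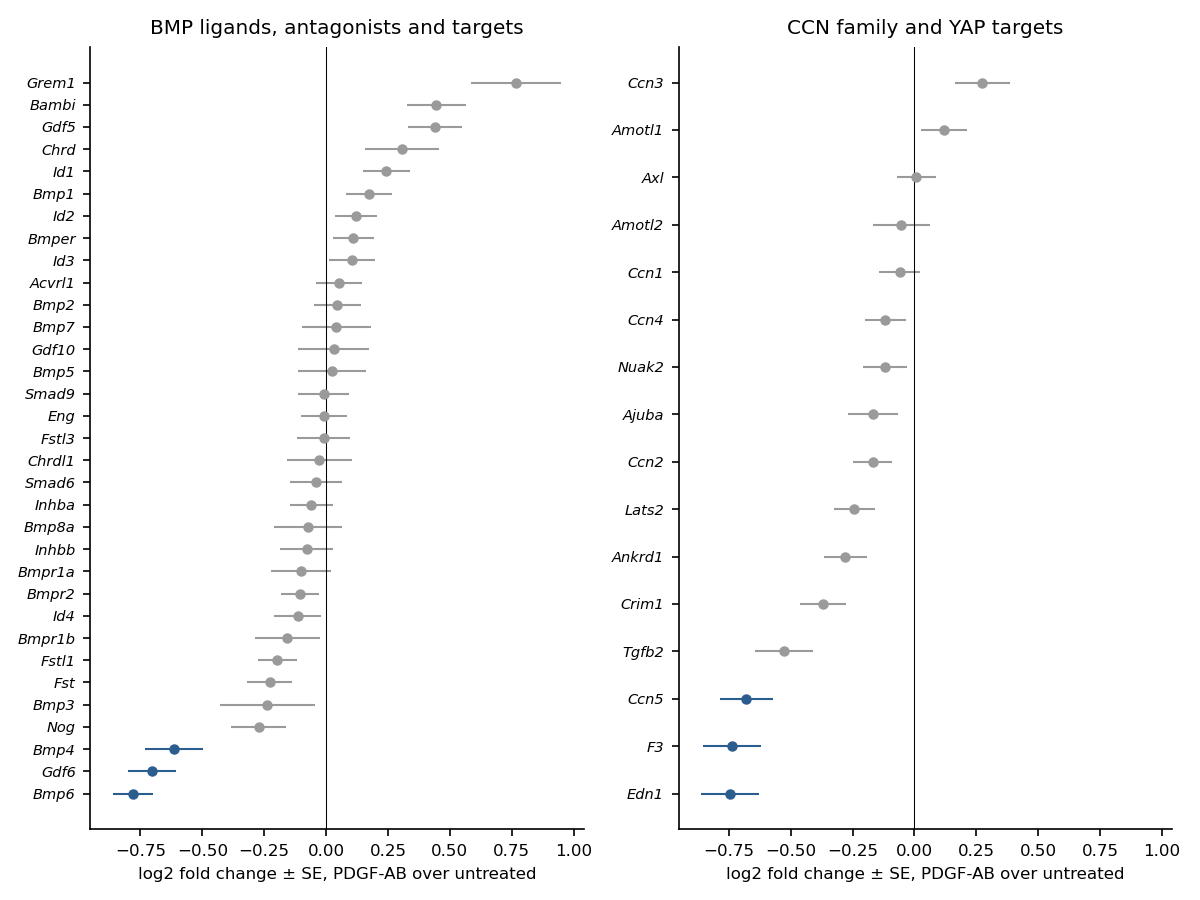
Log2 fold change of PDGF-AB over untreated with its SE for each measured gene of the BMP list (left, 33 genes) and of the CCN and YAP list (right, 16 genes). Blue points passed at an adjusted p under 0.05, which are Bmp4, Gdf6 and Bmp6 on the left and Ccn5, F3 and Edn1 on the right; grey points did not pass.

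Members of the plasminogen and coagulation system changed in both directions. F3 was at 6.67, 6.95 and 7.16 in PDGF-AB arrays, against 7.58, 7.72 and 7.68 in untreated arrays, a log2 fold change of -0.74 ± 0.12 (adjusted p = 0.0158). Serpinb2, an inhibitor of plasminogen activators, was at 4.62, 4.85 and 4.64 with PDGF-AB, against 4.13, 3.81 and 3.88 untreated (0.77 ± 0.11, adjusted p = 0.0107). Among the 17 measured genes of the list these were 1 called rise and 1 called fall, beside 0.12% and 0.211% of all genes. Of the 17, 4 were higher and 3 lower at an unadjusted p under 0.05, which 8.55% of all genes had. The median was 0.13, against 0.01 over all genes, and Plat, the tissue plasminogen activator, had 0.45 ± 0.11 (adjusted p = 0.155).

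Transcription factors of the immediate early class also split. Fosb, an AP-1 subunit, was at 5.23, 5.24 and 5.24 in PDGF-AB arrays, against 6.11, 6.24 and 5.98 in untreated arrays (log2 fold change -0.87 ± 0.10, adjusted p = 0.00247). Fosl1, the AP-1 subunit FRA-1, was at 6.37, 6.30 and 6.43 with PDGF-AB, against 5.69, 5.91 and 5.85 untreated (0.55 ± 0.11, adjusted p = 0.048), and its call was lost without any 1 of the 6 arrays. Nr4a1, an orphan nuclear receptor, was at 5.79, 6.01 and 5.87 with PDGF-AB, against 5.31, 5.21 and 5.20 untreated (0.65 ± 0.10, adjusted p = 0.0144). Of 28 measured immediate early factors, 2 were called higher and 1 lower, beside 0.12% and 0.211% of all genes, at a median of -0.01, against 0.01 over all genes. Among the 28, 3 were higher and 4 lower at an unadjusted p under 0.05, which 8.55% of all genes had. Fos was at 4.67, 5.39 and 4.98 with PDGF-AB, against 5.56, 5.58 and 5.65 untreated (-0.58 ± 0.15, adjusted p = 0.176). Egr1, Jun and Myc, which many growth factors induce briefly, had 0.11, 0.03 and 0.00 (adjusted p of 0.735, 0.966 and 0.997).

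AP-1 binds the letters TGANTCA, and 3 RefSeq promoters of called genes that hold them are shown because subunits of the factor were themselves called. Each runs from 250 bases before to 50 after a transcription start on the plus strand of GRCm38.p6, and capitals mark TGANTCA. The promoter of F3 lies at chr3:121723287-121723586, the first of both Serpinb2 promoters at chr1:107511173-107511472, and that of Scel, which encodes the cornified envelope protein sciellin and fell by 0.60 (adjusted p = 0.0222), at chr14:103513091-103513390.
F3: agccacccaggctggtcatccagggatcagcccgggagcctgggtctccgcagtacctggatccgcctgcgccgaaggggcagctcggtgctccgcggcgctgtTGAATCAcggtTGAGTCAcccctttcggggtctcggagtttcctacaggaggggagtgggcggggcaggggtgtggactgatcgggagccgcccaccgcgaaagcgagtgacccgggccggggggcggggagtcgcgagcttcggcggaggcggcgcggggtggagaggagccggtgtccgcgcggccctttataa
Serpinb2: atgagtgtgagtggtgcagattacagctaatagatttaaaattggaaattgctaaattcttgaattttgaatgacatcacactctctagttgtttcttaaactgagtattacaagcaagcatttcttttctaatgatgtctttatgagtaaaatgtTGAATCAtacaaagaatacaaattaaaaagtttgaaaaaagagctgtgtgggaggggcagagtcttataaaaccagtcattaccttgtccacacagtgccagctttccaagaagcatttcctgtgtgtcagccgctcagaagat
Scel: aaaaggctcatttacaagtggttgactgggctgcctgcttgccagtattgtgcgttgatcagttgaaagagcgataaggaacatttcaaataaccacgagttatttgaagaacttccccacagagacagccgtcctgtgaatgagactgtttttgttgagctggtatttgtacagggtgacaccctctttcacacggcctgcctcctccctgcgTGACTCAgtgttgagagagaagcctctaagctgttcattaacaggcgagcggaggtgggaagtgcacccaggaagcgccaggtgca
F3 has the letters 146 and 135 bases before its start, Serpinb2 has them 94 bases before and Scel 36 bases before. Both strands read alike for this motif. A promoter was matched by symbol for 43 of the 66 called genes, and TGANTCA was present for 2 of 15 genes that rose (13.3%), 5 of 28 that fell (17.9%) and 8.97% of all genes in the table, where a gene with several promoters counts once if any holds it. These are matches of letters, with no test.

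Transcripts of a few intracellular signalling proteins and receptors were called, a grouping made after their values were seen apart from the lists named. Rasgrp3, an activator of Ras that responds to diacylglycerol, was at 4.95, 4.90 and 5.05 in PDGF-AB arrays, against 6.14, 6.12 and 6.03 in untreated arrays (log2 fold change -1.12 ± 0.12, adjusted p = 0.0014). It was the 1 call among 17 measured activators and inactivators of Ras, beside 0.331% of all genes. Among 21 genes of ERK pathway feedback 0 were called, at a median of 0.07, and among 18 genes of PI3K and FOXO feedback 0 were called, at -0.08. At an unadjusted p under 0.05, which 8.55% of all genes had, the first list had 3 higher and 2 lower and the second 0 higher and 3 lower. The nearest to the threshold were Spred1, an inhibitor of the pathway from Ras to ERK, at 0.35 ± 0.09 (adjusted p = 0.204), and Igf1r, the IGF1 receptor, at -0.40 ± 0.08 (adjusted p = 0.0585). Prkar2b, a regulatory subunit of protein kinase A, was at 8.78, 9.04 and 8.998 with PDGF-AB, against 8.14, 8.28 and 8.13 untreated (0.76 ± 0.11, adjusted p = 0.0116). S1pr3, a receptor of sphingosine-1-phosphate, was at 6.81, 6.74 and 6.90 with PDGF-AB, against 6.08, 6.06 and 6.34 untreated (0.66 ± 0.10, adjusted p = 0.0144). Eps8, an actin regulator downstream of receptor kinases, rose by 0.53 ± 0.08 (adjusted p = 0.0158), and Lurap1l, an adaptor-type protein, fell by 0.79 ± 0.09 (adjusted p = 0.00247). The receptor genes themselves did not pass: Pdgfra had 0.13 ± 0.09 (adjusted p = 0.720) and Pdgfrb 0.04 ± 0.10 (adjusted p = 0.952), and of the ligand genes Pdgfd was at 7.05, 7.17 and 7.29 with PDGF-AB, against 7.55, 7.51 and 7.41 untreated (-0.32 ± 0.09, adjusted p = 0.236).

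Jag1, Sema3d, Fzd6, Gpc4 and Pcsk6 also fell, and are placed together after their values were seen. The Wnt list of 30 genes, which does not include Fzd6, held 0 falls. Jag1, a Notch ligand, had 8.23, 8.06 and 8.12 with PDGF-AB, against 8.50, 8.65 and 8.66 untreated (-0.47 ± 0.09, adjusted p = 0.0476). Sema3d, a secreted guidance cue, had 7.14, 7.25 and 7.29 with PDGF-AB, against 7.88, 7.79 and 7.79 untreated (-0.59 ± 0.09, adjusted p = 0.0107). Fzd6, a Wnt receptor, fell by 0.59 ± 0.10 (adjusted p = 0.0293), and Gpc4, a cell surface heparan sulfate proteoglycan, by 0.45 ± 0.08 (adjusted p = 0.0348). Pcsk6, a convertase that cleaves ligand precursors, fell by 0.45 ± 0.09 (adjusted p = 0.048). The calls of Jag1, Gpc4 and Pcsk6 were lost without any 1 of the 6 arrays, and those of Fzd6 and Sema3d without 5 and 1 of them.

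Of 38 measured interstitial matrix genes 1 rose, which was Mgp, and 0 fell in the limma fit, beside 0.12% and 0.211% of all genes. The median log2 fold change was 0.06. At an unadjusted p under 0.05, which 8.55% of all genes had, 10 of the 38 were higher and 7 lower. Of 21 basement membrane genes 0 were called, and 3 were higher and 1 lower at that unadjusted p. The fibrillar collagens Col1a1, Col1a2 and Col3a1 had 0.19, 0.14 and 0.36 (adjusted p of 0.637, 0.727 and 0.191). Col12a1, a collagen that decorates fibrils, was at 8.45, 8.48 and 8.81 with PDGF-AB, against 9.03, 9.14 and 9.08 untreated (-0.50 ± 0.11, adjusted p = 0.0764). Cthrc1, a secreted collagen-triple-helix protein, had -0.45 ± 0.09 (adjusted p = 0.0562), and Tnc, the glycoprotein tenascin-C, had 0.36 ± 0.08 (adjusted p = 0.101).

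Among 26 matrix proteases and their inhibitors the 1 call, beside 0.331% of all genes, was Adamts5. This protease, which cleaves aggrecan and versican, was at 9.70, 9.56 and 9.69 in PDGF-AB arrays, against 10.36, 10.37 and 10.33 in untreated arrays (-0.70 ± 0.08, adjusted p = 0.00247). Adam12, a membrane metalloprotease not on that list, rose by 0.48 ± 0.09 (adjusted p = 0.0398). Fndc1, a fibronectin type III domain protein, had 5.09, 4.91 and 5.08 with PDGF-AB, against 5.63, 5.57 and 5.60 untreated (-0.57 ± 0.09, adjusted p = 0.0143).

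Genes best known from neurons, glia and excitable cells were among the falls, a grouping made after their values were seen. Nrn1, described above, was a rise. Ptprz1, a receptor phosphatase of glia, was at 3.54, 4.63 and 4.50 in PDGF-AB arrays, against 5.56, 5.54 and 5.32 in untreated arrays (log2 fold change -1.25 ± 0.21, adjusted p = 0.0234). Replicate 1 was the lowest PDGF-AB array, and without it the change was -0.91 (adjusted p = 0.0103); the call was lost without any 1 of the 3 untreated arrays (adjusted p up to 0.119). Map2, a neuronal microtubule-associated protein, was at 6.56, 6.24 and 6.00 with PDGF-AB, against 7.31, 7.36 and 7.18 untreated (-1.02 ± 0.12, adjusted p = 0.00255). Slc1a6, a glutamate transporter, was at 6.78, 6.76 and 6.64 with PDGF-AB, against 7.48, 7.45 and 7.30 untreated (-0.69 ± 0.08, adjusted p = 0.00295). Nkain4, a protein that interacts with the sodium pump, was at 6.71, 7.02 and 7.39 with PDGF-AB, against 7.87, 7.84 and 7.78 untreated (-0.79 ± 0.14, adjusted p = 0.0252). Its PDGF-AB arrays were more scattered than the untreated ones, and the change was -0.62 without replicate 1 (adjusted p = 0.0586). Kcnab1 and Kcne4, accessory subunits of potassium channels, fell by 0.59 ± 0.09 and 0.58 ± 0.09 (adjusted p = 0.0157 and 0.0144). The list of 11 Schwann cell and neural markers held 0 calls. It held 2 genes higher and 0 lower at an unadjusted p under 0.05, which 8.55% of all genes had.

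Enzymes that act on lipids or attach them to proteins were also called, a grouping likewise made after their values were seen. Lpl, described above, belongs here too and rose. Ch25h, which makes 25-hydroxycholesterol, was at 6.34, 6.49 and 6.69 in PDGF-AB arrays, against 5.99, 5.87 and 5.86 in untreated arrays (0.60 ± 0.11, adjusted p = 0.0361). Mgll, the monoacylglycerol lipase, was at 5.69, 5.69 and 5.77 with PDGF-AB, against 6.35, 6.23 and 6.25 untreated (-0.56 ± 0.08, adjusted p = 0.0073). Ephx2, the soluble epoxide hydrolase, and Smpd3, a neutral sphingomyelinase, each fell by 0.55 ± 0.10 (adjusted p = 0.0288 for both). Zdhhc2, a palmitoyltransferase, was at 8.11, 8.48 and 8.26 with PDGF-AB, against 8.94, 9.08 and 8.92 untreated (-0.70 ± 0.11, adjusted p = 0.0191). Aldh1a1, which makes retinoic acid, fell by 0.43 ± 0.08 (adjusted p = 0.0398). The 20 measured genes of sterol synthesis held 0 calls, at a median of -0.07. At an unadjusted p under 0.05, which 8.55% of all genes had, 3 were lower and 0 higher.

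Beside 0.331% of all genes, 1 of 25 genes that mark fibroblasts and mesenchyme was called, the homeobox factor Prrx1. It was at 9.02, 9.27 and 9.14 in PDGF-AB arrays, against 8.59, 8.43 and 8.36 in untreated arrays (log2 fold change 0.68 ± 0.10, adjusted p = 0.0073), and stayed called without any 1 of the 6 arrays. Dpep1, Dpt and Tcf21 had 0.55, 0.58 and 0.22 (adjusted p of 0.105, 0.120 and 0.637), the small proteoglycan Dcn had -0.46 (adjusted p = 0.111), and the list's median was 0.09. Of the 25, 6 were higher and 1 lower at an unadjusted p under 0.05, which 8.55% of all genes had. Of the 24 cardiac and epicardial transcription factors 0 were called, nor were any of the 13 mesothelial and epicardial markers, of which Upk3b stood nearest at -0.48 ± 0.10 (adjusted p = 0.0562). These 24 factors had 2 higher and 0 lower at an unadjusted p under 0.05, and the 13 markers 1 higher and 2 lower. Zfp521, a zinc finger factor of progenitor cells, fell by 0.51 ± 0.09 (adjusted p = 0.038).

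The largest rise was that of a leukocyte gene. Cd53, a tetraspanin of blood cells, was at 4.84, 5.63 and 6.09 in PDGF-AB arrays, against 3.78, 3.57 and 3.91 in untreated arrays (1.77 ± 0.24, adjusted p = 0.00584). Tyrobp, the adaptor DAP12 of myeloid cells, moved the other way, with 2.92, 3.06 and 3.01 in PDGF-AB arrays and 3.53, 3.39 and 3.65 in untreated arrays (-0.53 ± 0.09, adjusted p = 0.024). The 22 leukocyte and macrophage markers held these 2 calls, beside 0.331% of all genes, and 11 had a positive and 11 a negative log2 fold change. Their median log2 fold change was 0.007, against 0.01 over all genes. Their mean level per array, which includes Cd53, was 3.35 to 3.38 with PDGF-AB and 3.28 to 3.32 untreated. Ptprc, the pan-leukocyte antigen CD45, was at 2.94 with PDGF-AB and 2.94 untreated (adjusted p = 0.998), and Cd68 had 0.01 (adjusted p = 0.987). Untreated Cd53, and Tyrobp and Ptprc in both groups, lay below the median of all genes (4.45), where background can shrink a fold change. Fewer cells of a type and less RNA per cell cannot be told apart in such bulk cultures. Krt6a, a keratin of stressed epithelium, also rose, and lay below the median of all genes in both groups, at 3.42, 3.89 and 3.50 with PDGF-AB, against 3.04, 2.84 and 2.58 untreated (0.78 ± 0.14, adjusted p = 0.0339).

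Lists of cell division and stress held no calls. For these lists and those that follow, 0.331% of all genes were called and 8.55% had an unadjusted p under 0.05 in the limma fit. With limma 0 of 27 mitosis genes passed, 0 at an unadjusted p under 0.05, and of 25 DNA replication genes 0 passed and 1 had an unadjusted p under 0.05, with medians of 0.00 and 0.05. Ccnd1, the G1 cyclin that growth factors induce, was at 11.46, 11.33 and 11.41 with PDGF-AB, against 11.23, 11.15 and 11.18 untreated. Its groups did not overlap and the change did not pass (0.21 ± 0.08, adjusted p = 0.430). The lists of G1 cyclins, NRF2 targets, ATF4 and unfolded protein response, interferon response, and glycolysis and hypoxia held 0 calls, with medians from -0.02 to 0.07. At an unadjusted p under 0.05 they held, in that order, 2, 3, 3, 3 and 5 genes higher and 1, 1, 0, 1 and 2 lower. Of 31 chemokines and cytokines Cxcl12 was the 1 call, and Ccl7, a monocyte chemokine, was at 6.56, 6.57 and 6.54 with PDGF-AB, against 6.98, 6.96 and 6.93 untreated (-0.40 ± 0.08, adjusted p = 0.0733). Of 34 secreted growth factors Hgf and Nrn1 were the calls, and Igf1 had -0.46 ± 0.09 (adjusted p = 0.0554). In the list of 30 Wnt genes, which does not include Fzd6, Dkk2 was the 1 call. In the list of 20 genes of the endothelin, angiotensin and prostaglandin system Edn1 was. The pericyte and smooth muscle list (14 genes) and the endothelial (13), cardiomyocyte (15) and erythroid (3) lists held 0 calls. The chemokine, growth factor, Wnt and endothelin lists held, in that order, 4, 6, 4 and 3 genes higher at an unadjusted p under 0.05. Those lower numbered 1, 2, 2 and 1. The pericyte and smooth muscle list held 3 higher and 3 lower, the endothelial and cardiomyocyte lists 1 and 1 each, and the erythroid list 0 and 0.

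**Figure D4:**
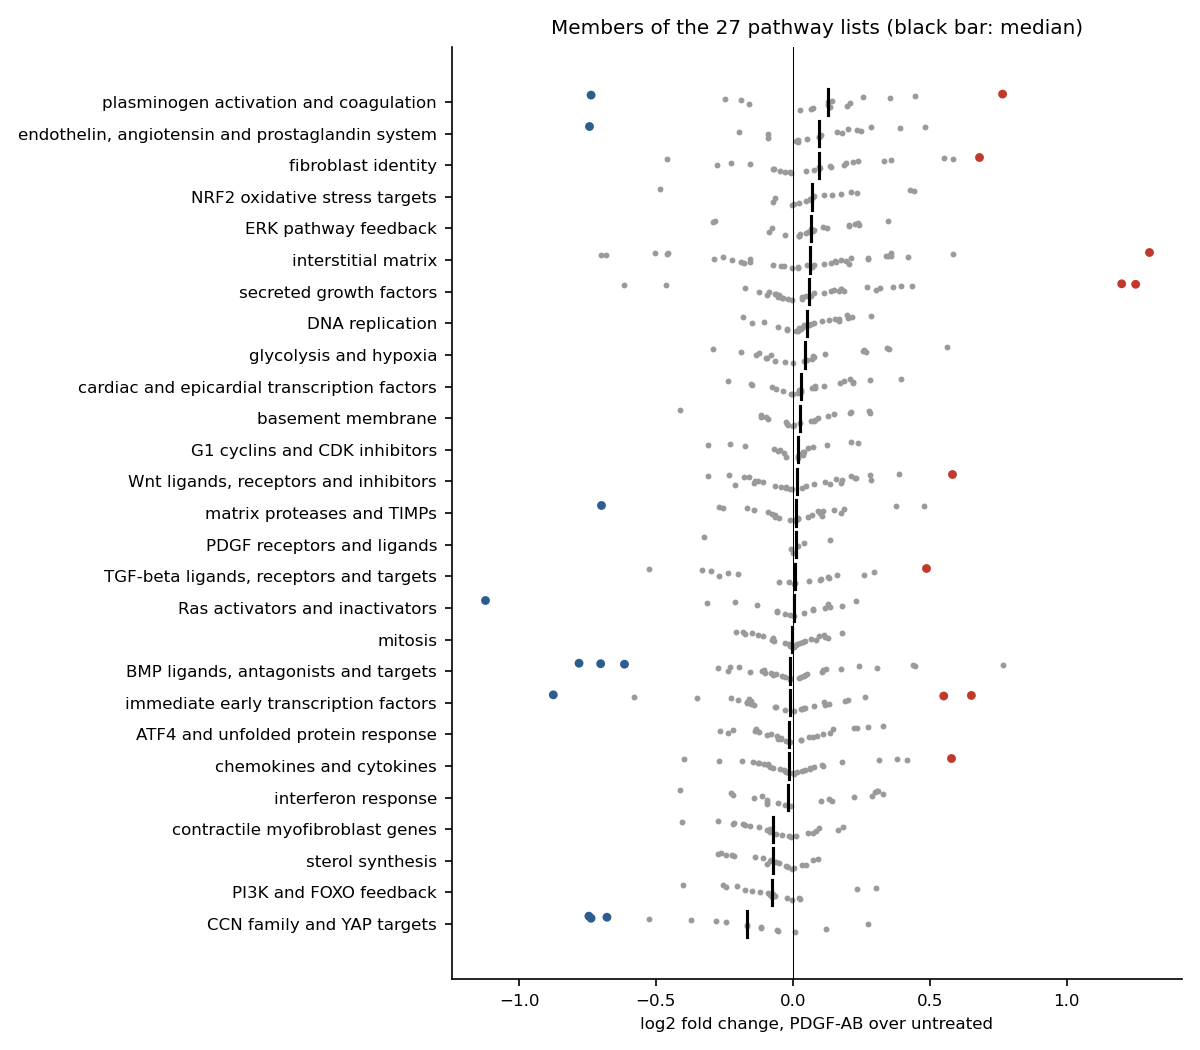
Log2 fold change of PDGF-AB over untreated for every measured member of the 27 pathway lists, ordered by list median (black bar). Red and blue points passed at an adjusted p under 0.05 and grey points did not; medians run from -0.17 for the CCN family and YAP targets to 0.13 for plasminogen activation and coagulation.

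The same genes were set beside the receptor inhibitor. AG1296 blocks the kinase of the PDGF receptors and, less selectively, of Kit and FGF receptors. The comparisons share their untreated arrays, so values of the same gene are not independent and are given side by side only. Over all genes 639 (3.2%) were called with AG1296 at 1 uM and 375 (1.88%) at 10 uM. Over the 24 genes that rose with PDGF-AB, the median log2 fold change was 0.66 for PDGF-AB, -0.37 for the inhibitor at 1 uM and -0.36 at 10 uM. Over the 42 that fell it was -0.59 for PDGF-AB, 0.46 at 1 uM and 0.33 at 10 uM.

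Single genes ran in opposite or in like directions. Nrn1 had 1.25 with PDGF-AB, -2.67 in AG1296 1 uM cells (adjusted p = 5.38e-07) and -1.59 at 10 uM. S1pr3 had 0.66 with PDGF-AB, -1.74 with 1 uM and -1.12 with 10 uM, and Cxcl12 had 0.58, -1.10 and -0.48 in that order. Bmp6 had -0.78 with PDGF-AB, 0.69 with 1 uM (adjusted p = 0.000216) and 0.47 with 10 uM, and Map2 had -1.02, 0.97 and 1.06. Fosb had a negative value in each comparison, at -0.87, -0.72 and -0.84, and Olfml3 a positive one, at 0.71, 0.55 and 0.60. Rasgrp3 (-1.12, -0.41 and -0.52) and Kcnab1 (-0.59, -0.495 and -0.163) were among other calls with like signs. So were Sntg1 (-0.452, -0.475 and -0.492) and Tgfb1 (0.49, 0.35 and 0.25). Hgf had 1.20 with PDGF-AB, -0.32 with 1 uM (adjusted p = 0.341) and -0.41 with 10 uM (adjusted p = 0.224). Cd53 had 1.77 with PDGF-AB, 0.04 with 1 uM (adjusted p = 0.978) and -0.47 with 10 uM (adjusted p = 0.491), and Nr4a1 had 0.65, 0.09 and 0.15.

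**Figure D5:**
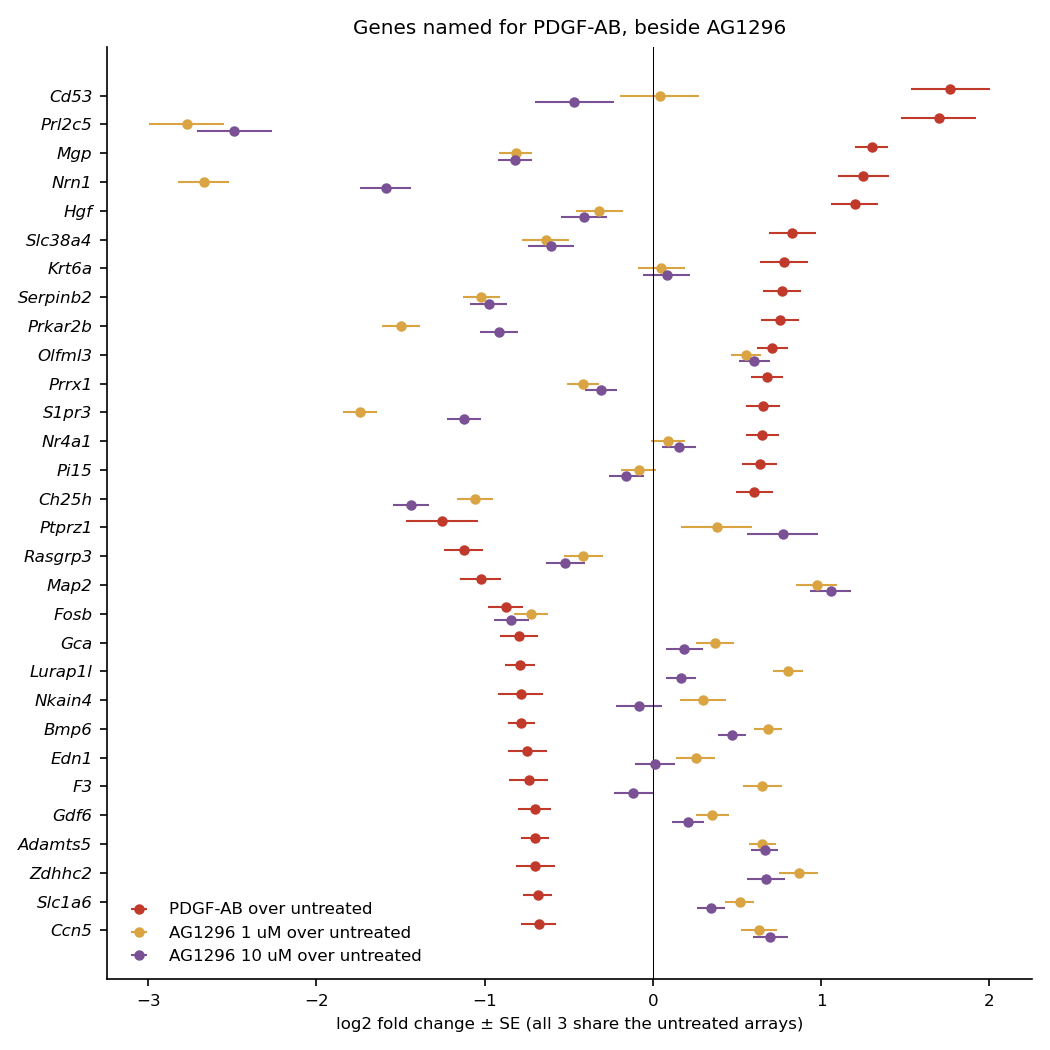
Log2 fold change over untreated with its SE for the 15 largest called rises (top) and the 15 largest called falls among named genes (bottom) with PDGF-AB (red). Beside them are AG1296 1 uM (yellow) and AG1296 10 uM (purple), which share the 3 untreated arrays. Prl2c5 reaches 1.70 with PDGF-AB, -2.77 with 1 uM and -2.49 with 10 uM, while Fosb lies between -0.87 and -0.72 in all 3.

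The remaining calls were spread over many functions. Slc38a4, an amino acid transporter, was at 5.82, 5.87 and 5.35 in PDGF-AB arrays, against 4.97, 4.75 and 4.83 in untreated arrays (0.83 ± 0.14, adjusted p = 0.0222). Gca, a calcium-binding protein, was at 5.15, 5.44 and 5.30 with PDGF-AB, against 6.11, 6.16 and 6.01 untreated (-0.80 ± 0.11, adjusted p = 0.0073). The adhesion and cytoskeleton genes Sorbs2, Lims2 and Pcdh18 fell by 0.61, 0.52 and 0.48 (adjusted p of 0.0227, 0.0144 and 0.0361), and Septin9 rose by 0.45 (adjusted p = 0.0347). Galnt16, an O-glycosylation enzyme, fell by 0.58 (adjusted p = 0.0258), and Vnn1, Prss23, Sntg1, Crebl2, Pxdc1 and Fibin fell by 0.45 to 0.52. Rtp4 rose by 0.60 (adjusted p = 0.0361). The last call, a fall, was a transcript with a clone name and is not named.

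Of the 66 calls, 16 passed without any 1 of the 6 arrays compared, and the other 50 lost their call without at least 1 of them. They were Mgp, Nrn1, Hgf, Prl2c5, Cd53, Olfml3 and Prrx1 among the rises and Rasgrp3, Map2, Fosb, Gca, Lurap1l, Bmp6, Gdf6, Adamts5 and Slc1a6 among the falls. Of these, 7 passed also in a fit of the 6 arrays alone and in every other setting tried, namely Mgp, Nrn1, Prl2c5, Rasgrp3, Fosb, Lurap1l and Bmp6. All 66 kept their direction in each setting.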

How the data were processed

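The authors deposited 1 log2 level for each probe set, made with RMA (background correction, normalization between arrays and summary of probes) and limma, per the submitters' processing notes, with no versions or settings. That the log is to base 2 was judged from how far the values reach. Per the labels' protocols, 100 ng of total RNA was labelled for 1-colour Affymetrix arrays. The sources used here name no slide or scan date, so no batch could be examined.

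Of 28853 probe sets, 21789 had exactly 1 gene symbol, 1621 had several and 5443 had none; the last 2 classes were left out. The brightest probe set of each gene over 12 arrays was kept (19938 genes). All 12 arrays entered 1 fit in limma 3.58.1 (R 4.3.3) with a mean per group and empirical Bayes moderation. Tests were two-sided and adjusted over all genes; a gene was called at an adjusted p under 0.05. The number of arrays limits the precision.

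In simulated data for this comparison (10 sets of 19938 genes, 200 changed), 44.6% of genes changed by 0.5 and 94% of those changed by 1 (log2) were recovered. Of the calls 5.52% were false. The simulated noise was normal and independent between genes and arrays, with no array set apart, so these rates may not hold for the real arrays.

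The 27 pathway and 7 marker lists held 735 genes, of which 693 were measured. The comparison, lists and naming rule were chosen with earlier results of these data known. Values per array are given for the 15 largest called rises and 15 largest called falls among named genes and for further called genes. Uncalled genes are named if among the 4 smallest p-values of a list, or otherwise as well-known members chosen after their values were seen.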

Additional observations from a re-analysis of the deposited data

How the results depend on the processing

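The 66 calls (24 higher, 42 lower) numbered 143 with dim genes left out (55 higher, 88 lower; 62 shared with the 66) and 160 with an intensity trend and robust moderation (60 and 100; 64 shared). With only the 6 arrays compared, which leaves fewer arrays to estimate the spread, there were 7 (3 and 4). After median centring 49 passed, with 15 higher, and the split of higher against lower moved by under 10 percentage points. Leaving out 1 array in turn gave 21 to 62 calls, 8 to 23 higher and 11 to 39 lower. It was 21, 22 and 23 without untreated replicate 1, 2 and 3, and 40, 30 and 36 without PDGF-AB replicate 1, 2 and 3. All probe sets with 1 symbol, mean probe sets, quantile normalization and array weights gave 57, 66, 68 and 65 calls. Same-numbered PDGF-AB and untreated arrays correlated in their deviations from the group means at 0.065, 0.163 and -0.003, and differently numbered ones at -0.15 to 0.088. The labels do not state whether same-numbered arrays were paired, and 3 arrays a group cannot settle it. With a replicate block 61 genes passed (23 and 38, with 54 shared).

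No called gene reversed. Genes near 0 that did not pass changed sign. With array weights Pdgfrb, Pdgfa and Pdgfb had -0.016, 0.002 and 0.014, with median centring Pdgfc and Kit had -0.006 and -0.012, and with quantile normalization Pdgfa and Kit had 0.012 and -0.023. Leaving out 1 array gave -0.045 to 0.094 for Pdgfrb, -0.085 to 0.152 for Pdgfc, -0.06 to 0.039 for Pdgfa, -0.08 to 0.07 for Pdgfb, -0.053 to 0.086 for Kit and -0.097 to 0.046 for Pecam1. The cause of these shifts was not tested. Signal near background limits the folds of genes below the median of all genes, 7 of the 66 calls.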

Other observations

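Probe sets left out of the gene-level fit were tested with all 28853 in 1 limma fit. Of 5443 probe sets with no gene symbol 4 were higher and 0 lower with PDGF-AB at an adjusted p under 0.05, and of 1621 with several symbols 1 was higher and 0 lower. In the same fit 16 probe sets with 1 symbol were higher and 30 lower.

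Cck, which encodes the peptide cholecystokinin, had a log2 fold change of 1.36 ± 0.40 that did not pass (adjusted p = 0.282), the largest of any uncalled gene in this comparison. Its mean was 4.81 with PDGF-AB and 3.45 untreated. It was chosen after its values were seen. Another 39 genes had an adjusted p from 0.05 to 0.10.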
